A study of Mus musculus with 4 samples.

Results

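Border-associated macrophages live in the perivascular spaces, the meninges and the choroid plexus, at the edges of the brain tissue that microglia fill. They are known for taking up proteins and debris with scavenger receptors such as the mannose receptor Mrc1, and a subset of them presents antigen on MHC class II. In these data they were picked by their transcripts. A barcode of either brain library was a member when it held at least 4 UMIs (unique molecular identifiers, each a counted transcript) of Mrc1, Pf4, Cbr2, Cd163, F13a1 and Lyve1 together, at least 2 UMIs of the complement genes C1qa, C1qb and C1qc, at most 2 of the astrocyte genes Slc1a2 and Gja1, and none of the T cell gene Cd3e. Barcodes needed 500 UMIs, 200 genes and at most 20% mitochondrial UMIs. These limits left 86 members, 30 of 12189 kept barcodes in the NPs brain and 56 of 11668 in the untreated brain, out of 64266 deposited barcodes in the 4 libraries of the series.

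Single cells of brain and intestine were sequenced with droplet libraries that read the 3' end of transcripts. The brain libraries came from wild-type (WT) mice given NPs for 2 months and from untreated WT mice, 1 library each. The labels do not spell out NPs and give no number of animals. They list BALB/c mice aged 5 weeks and ICR mice aged 6 months for the tissues of the series without saying which strain gave which library, so strain, age and treatment cannot be told apart here. The deposited NPs library held 63889853 UMIs in 12226 barcodes and the untreated library 70594935 UMIs in 11754 barcodes. Members had a median of 6439.5 UMIs in the NPs brain (1928 to 15854) and 7604 in the untreated brain (608 to 16795). The libraries shared 35 barcode sequences, and 0 members carried one of them. Doublets were kept: Scrublet, which scores barcodes for a likeness to simulated mixtures, marked 1 of 30 NPs and 2 of 56 untreated members. With 1 library per group no difference can be set against a spread between replicates, so no test was made, and the 95% intervals below cover counting error only.

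The MHC class II genes carry much of what follows, so the promoters of 3 of them, taken from RefSeq (GRCm38.p6), are shown. The capitals mark TGATTGG, the Y box, which is bound by the factor NF-Y and is known from MHC class II promoters. The 120 bases before each RefSeq start site are given in the direction of the gene: chr17:34287824-34287943 (minus strand) for H2-Aa, chr17:34305747-34305866 (plus strand) for H2-Eb1 and chr17:34153071-34153190 (plus strand) for H2-DMb1. The GENCODE annotation used for positions starts H2-DMb1 at 34153072, so that window lies almost wholly inside its gene model.
H2-Aa: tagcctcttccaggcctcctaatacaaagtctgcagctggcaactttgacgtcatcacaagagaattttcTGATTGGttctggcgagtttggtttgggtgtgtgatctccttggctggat
H2-Eb1: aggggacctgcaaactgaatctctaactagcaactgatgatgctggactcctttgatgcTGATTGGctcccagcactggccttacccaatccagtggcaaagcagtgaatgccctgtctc
H2-DMb1: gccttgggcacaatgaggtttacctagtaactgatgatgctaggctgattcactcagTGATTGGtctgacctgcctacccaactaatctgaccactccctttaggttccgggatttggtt
The motif ran from base -50 to base -44 before the start of H2-Aa, from -61 to -55 in H2-Eb1 and from -63 to -57 in H2-DMb1. Searched as TGATTGG or, on the other strand, CCAATCA, it was in these windows of 6 of the 7 MHC class II genes with an entry, and in 1691 of all 32851 promoters of the table (5.15%). A match of letters is a description and no evidence of binding.

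The members carried the genes that chose them at uneven levels, and most of these UMIs were of Mrc1 and Pf4. Mrc1 had 1252 CPM (a gene's summed UMIs, scaled to a common total) in NPs members and 1237 CPM in untreated members. Single NPs members held 0 to 33 Mrc1 UMIs with a median of 7.5, and untreated members 0 to 45 with a median of 6. Pf4, a chemokine gene of platelets and of these macrophages, was at 947 CPM in NPs members and 637 CPM in untreated members. F13a1, which encodes a clotting factor subunit, was at 588 and 735 CPM, Cd163, the haemoglobin scavenger receptor, at 171 and 195 CPM, and Cbr2, a carbonyl reductase, at 148 and 256 CPM. Lyve1, a hyaluronan receptor of perivascular macrophages, was rare, with a UMI in 1 of 30 NPs members and 8 of 56 untreated members. Mrc1 and Pf4 were both present in 21 NPs members and 37 untreated members, and both were missing from 3 NPs members and 9 untreated members. The limit of 4 UMIs cut a sparse tail: 3 NPs and 4 untreated members held exactly 4, and 3 NPs and 8 untreated barcodes that met the other limits held 3. These values describe the choice and support nothing else.

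The rule also caught cells that look like something else. C1q transcripts left a gap: 2 NPs and 11 untreated members had under 0.1% of their UMIs in C1qa, C1qb and C1qc, and the others had at least 0.593% in the NPs brain and 0.312% in the untreated brain. In both C1q-poor NPs members and in 6 of the untreated ones, F13a1 made up at least 0.9 of the rule UMIs. Both NPs ones and 7 of the untreated ones held 10 or more UMIs of the monocyte genes Ly6c2, Plac8, Chil3 and Vcan. None of the C1q-poor members had a Pf4 UMI, and in 3 untreated ones Cbr2 was the only rule gene. Of the C1q-rich members, 3 in the NPs brain and 4 in the untreated brain held 10 or more UMIs of the microglial genes P2ry12, Tmem119, Siglech and Sall1. Members that were C1q-rich and held under 10 UMIs of each of the monocyte, microglial, endothelial, fibroblast and mural marker groups are called core members here, a definition chosen after the data were seen. They numbered 25 in the NPs brain and 37 in the untreated brain, and every core member had a Mrc1 UMI. The plot of C1q against rule transcripts shows the gap.

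**Figure D1:**
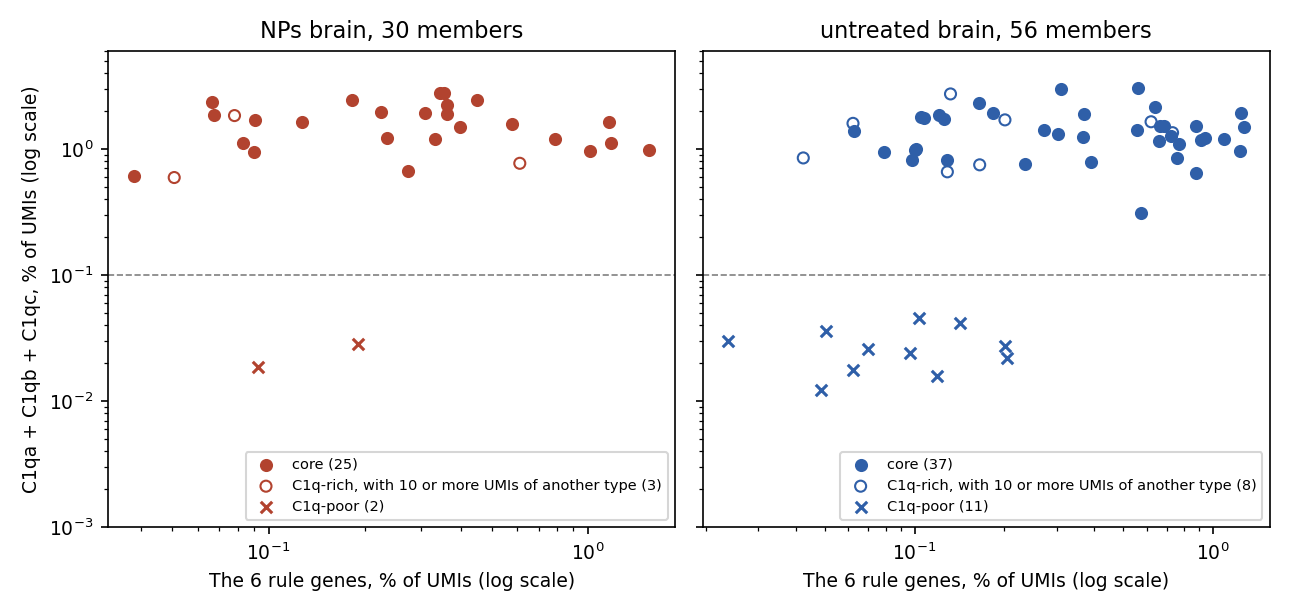
Share of each member's UMIs in the 6 rule genes (x axis, %, log scale) and in C1qa, C1qb and C1qc (y axis, %, log scale), 1 symbol per member, NPs brain on the left and untreated brain on the right. The 2 NPs and 11 untreated C1q-poor members (crosses) lie under the dashed line at 0.1%, well apart from the core (filled) and the other C1q-rich members (open).

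Markers of cell types were then summed in the core. The core was defined by limits on monocyte, microglial, endothelial, fibroblast and mural markers, so low sums of these follow from the choice. The rule itself allowed no Cd3e UMI, and 6 of the 12 border-associated macrophage markers are rule genes. In NPs and untreated core members the 12 markers fixed for border-associated macrophages summed to 6441 and 8321 CPM. Microglial markers summed to 1672 CPM in NPs and 2137 CPM in untreated core members, against 20749 and 19402 CPM in the microglia of the same libraries. Monocyte markers were at 186 and 231 CPM, nearly all of it Ccr2 in the untreated core, where Ly6c2, Plac8, Chil3 and Vcan were at 0. T cell markers were at 0 in both. Neuroblast markers were at 343 CPM in NPs core members and 4.53 CPM in untreated core members, and a single NPs core member of 12112 UMIs held 59 UMIs of them. The choroid plexus gene Ttr moved with the library: 15 of 30 NPs members held a Ttr UMI and none held more than 2, while all 56 untreated members held 3 to 25. Ttr was at 1345 CPM in NPs microglia and 18720 CPM in untreated microglia, and its part in the results below was not tested.

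Fewer members were found in the NPs brain. They made up 0.246% of kept barcodes there (30 of 12189, exact binomial interval 0.166 to 0.351%) and 0.480% in the untreated brain (56 of 11668, 0.363 to 0.623%), a ratio of 0.513 (0.318 to 0.813). Set against microglia alone, the share of members among members plus microglia was 0.471% in the NPs brain and 1.07% in the untreated brain, a ratio of 0.440 (0.273 to 0.698). Much of the gap came with the C1q-poor and mixed members: core members were at 0.205% of kept barcodes in the NPs brain and 0.317% in the untreated brain, and the interval of their ratio of 0.647 ran from 0.373 to 1.10. Among core members plus microglia, core members made up 0.392% in the NPs brain and 0.709% in the untreated brain, a ratio of 0.554 (0.320 to 0.945). Thinned to 2000 UMIs per barcode, which left out 1030 NPs and 1180 untreated barcodes that held fewer, 18 NPs and 27 untreated members were left, a ratio of 0.627 (0.325 to 1.18). How many animals and which borders went into each dissociation is not stated, and fewer cells in the tissue or fewer set free cannot be told apart.

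Against the microglia of their own library, 11 of 12 chemokine genes and 7 of 9 MHC class II presentation genes were higher in members of both brains, and 19 of 22 homeostatic microglial genes were lower. Microglia were barcodes with 2 or more UMIs of C1q and of P2ry12, Tmem119, Siglech and Sall1, and at most 1 rule UMI, 6345 in the NPs brain and 5184 in the untreated brain. Both populations were chosen on their transcripts, so this is a description. Of 3434 genes with a mean of at least 50 CPM, 517 were at least 1.5-fold higher in members in both libraries, a background of 15.1%, and 745 were lower in both (21.7%). The median gene lay at -0.20 on the log2 scale in the NPs brain and -0.14 in the untreated brain, and after centring on that median 634 genes were higher and 539 lower, so that the higher genes made up 54.0% of the calls in place of 41.0%. In core members 447 of 3354 genes were higher (13.3%) and 733 lower (21.9%).

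Mgl2, a galactose-binding lectin gene of macrophages and dendritic cells, was at 529 CPM in NPs members and 0.184 CPM in NPs microglia, and at 481 CPM in untreated members and 0.241 CPM in untreated microglia. Ms4a7, a membrane protein gene that marks border macrophages, was 2346-fold higher in NPs members (1102 to 5970) and 611-fold higher in untreated members (375 to 1057). H2-Aa, an MHC class II alpha chain, was at 4922 CPM in NPs members against 9.97 CPM in NPs microglia, and at 4712 CPM in untreated members against 20.0 CPM in untreated microglia. Ccr2, the receptor that draws monocytes out of the marrow, was 346-fold higher in NPs members and 213-fold higher in untreated members. In core members, which hold fewer monocyte transcripts, its ratios over microglia were 191 and 124. Clec12a, an inhibitory lectin receptor, stood 440-fold and 157-fold above microglia in NPs and untreated members, and Cybb, the catalytic subunit of the phagocyte oxidase, 84.5-fold and 86.8-fold. The scavenger receptor Msr1 was 124-fold and 116-fold higher, the endocytic adaptor Dab2 160-fold and 60.6-fold, and the neutrophil chemokine Cxcl2 102-fold and 134-fold.

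On the other side stood microglial genes. Csmd3 was at 0.0588 of the microglial level in the NPs brain and 0.0519 in the untreated brain, the matrix gene Sparc at 0.0789 and 0.131, and the lens crystallin gene Crybb1 at 0.0695 and 0.0574. The orphan receptor gene Gpr34 was at 0.123 and 0.147, and Sgk1, a kinase gene, at 0.0965 and 0.0618. Core members were lower still in most of these, with Sparc at 0.0158 and 0.0190 of the microglial level. The core was limited to under 10 microglial UMIs per member, so this further drop follows in part from its definition.

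**Figure D2:**
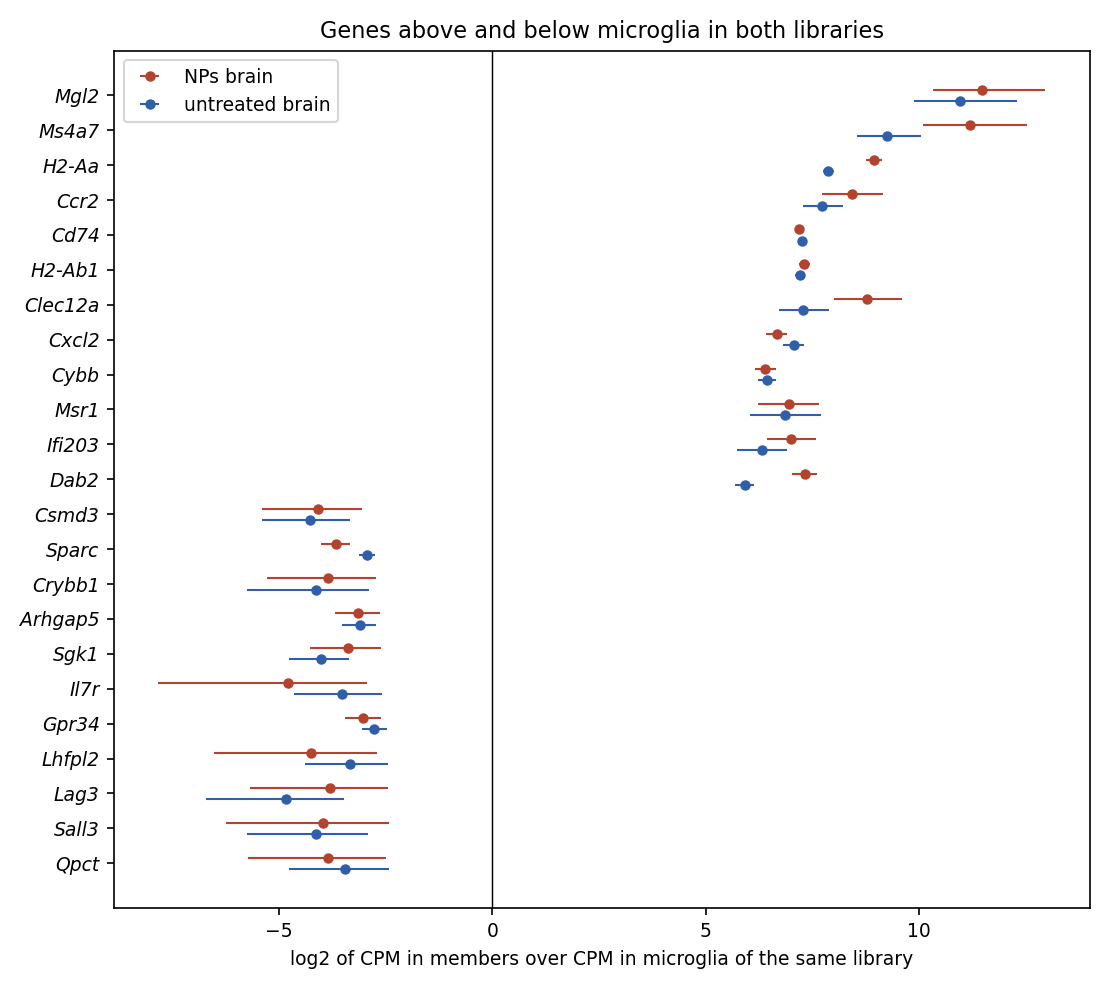
Log2 ratio of CPM in members over CPM in microglia of the same library (x axis) for named genes above and below microglia (y axis), with conditional binomial 95% intervals that cover counting error only, NPs brain red and untreated brain blue. The lines of the libraries lie near each other for most genes, from Mgl2 at the top to the microglial genes left of 0.

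The gene lists show the same contrast by function. Of 24 measured genes of border macrophage identity 19 were higher in both libraries and 2 lower. Of 12 chemokine genes 11 were higher and 0 lower, among them Cxcl1, 513-fold in NPs and 632-fold in untreated members, and Ccl7, 41.2-fold and 53.5-fold. Of 9 MHC class II presentation genes 7 were higher and 1 lower, the protease gene Ctss, at 0.414 and 0.393 of microglia. Among interferon response genes, 7 of 9 were higher and 0 lower. Homeostatic microglial genes went the other way, 0 of 22 higher and 19 lower, with median log2 ratios of -2.39 in the NPs brain and -2.63 in the untreated brain. In the lysosome list 1 of 26 genes was higher and 10 lower, with the aspartic protease gene Ctsd at 0.164 and 0.201 of microglia and the dipeptidyl peptidase gene Ctsc 2.55-fold and 2.35-fold higher. Of 18 scavenger and uptake receptors 8 were higher and 4 lower, and the apoptotic cell receptor gene Mertk was among the lower ones (0.196 and 0.173). Apoe, the main lipid carrier of the brain, was at 41410 CPM in NPs members against 6336 CPM in NPs microglia, and at 32425 CPM in untreated members against 5924 CPM in untreated microglia. Of 14 lipid handling genes 5 were higher and 2 lower, and Pltp, a phospholipid transfer protein gene, was 13.8-fold and 5.84-fold higher. The ferritin genes Fth1 and Ftl1 were 1.87-fold and 2.17-fold higher in NPs members and 2.05-fold and 2.31-fold higher in untreated members. The interleukin-1 pair parted: Il1b was 29.8-fold and 12.2-fold higher in members, Il1a at 0.0695 and 0.0586 of microglia.

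Core members ran over a wide range of MHC class II. The share of UMIs in H2-Aa, H2-Ab1, H2-Eb1 and Cd74, the invariant chain, ranged in NPs core members from 0 to 8.08% with a median of 2.04%, and in untreated core members from 0 to 8.42% with a median of 2.47%. H2-Eb1 gave 24 of the 5040 UMIs of these genes in NPs core members and 767 of 7441 in untreated core members. The shares are compared with H2-Eb1 included. With a limit of 0.5%, 15 of 25 NPs core members (60.0%, exact binomial interval 38.7 to 78.9%) and 22 of 37 untreated core members (59.5%, 42.1 to 75.2%) were MHC II-high, a ratio of 1.01 (0.487 to 2.04). Only 2 NPs and 2 untreated members lay within 0.2 percentage points of the limit. The share of MHC II-high members was 50.0% of all NPs members and 46.4% of all untreated members. A ratio within the bounds of that interval was not detectable at this number of cells.

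The genes named here and in the next paragraph differed between MHC II-high and MHC II-low core members in the same direction in both libraries. They were named in part by a rule that takes the genes that differ most. No share of all genes is given for this split, so these genes cannot be set against a background. The split is made on 4 of the transcripts counted, so the other genes are described without a test, by the ratio of CPM in MHC II-high over MHC II-low core members. Among genes higher in the MHC II-high cells, Coro1a, an actin regulator of leukocytes, was at 433 and 96.5 CPM in the high and low cells of the NPs brain and at 595 and 12.5 CPM in those of the untreated brain. Cd52, a short surface glycoprotein gene of leukocytes, was at 745 and 145 CPM in the NPs brain and at 723 and 25.1 CPM in the untreated brain. The peptide editors H2-DMa and H2-DMb1 were 3.66-fold and 6.64-fold higher in the NPs brain and 39.9-fold and 8.91-fold higher in the untreated brain. The MHC II-high cells summed to 115432 UMIs in the NPs brain and 141095 in the untreated brain, and the MHC II-low cells to 62188 and 79798. The lowest levels of this split rest on a few UMIs at most. Ratios over them, such as that of H2-DMa in the untreated brain, are uncertain. Ccr2 had a UMI in 7 of 15 MHC II-high and 2 of 10 MHC II-low core members of the NPs brain, and in 11 of 22 and 0 of 15 of the untreated brain.

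Among genes lower in the MHC II-high cells, Slc40a1, the iron exporter ferroportin, was at 26.0 CPM in high and 563 CPM in low cells of the NPs brain, and at 7.09 CPM in high and 439 CPM in low cells of the untreated brain. Cd209f, a C-type lectin gene, was at 8.66 and 531 CPM in the NPs brain and at 42.5 and 614 CPM in the untreated brain. Few cells held it: 3 of 10 low and 1 of 15 high cells of the NPs brain, and 7 of 15 and 2 of 22 of the untreated brain. In the NPs brain 2 low cells held 16 each of the 33 Cd209f UMIs of the low cells. Stab1, a scavenger receptor gene, had a median of 2 UMIs in high and 10 UMIs in low cells of the NPs brain, and of 2.5 and 10 UMIs in the untreated brain. Selenop, a selenium transport protein gene, was at 0.316 and 0.223 of the MHC II-low level in the NPs and untreated brain, Wfdc17 at 0.208 and 0.131, the cholesterol exporter gene Abca1 at 0.241 and 0.140, and the transcription factor gene Maf at 0.389 and 0.290. Across core members the MHC class II share and the share of the 6 rule genes ran opposite, with Spearman's rho of -0.58 over 25 NPs cells and -0.72 over 37 untreated cells. For Stab1 it was -0.75 and -0.69, and for Ccr2 0.57 and 0.66. These are shares of the same UMI total in the cells of 1 library each and are given as descriptions. The 6 rule genes also chose the cells, with at least 4 UMIs required, so their share is shaped by the choice. Against the UMIs of a cell, that share had a rho of -0.40 in NPs and -0.20 in untreated core members.

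**Figure D3:**
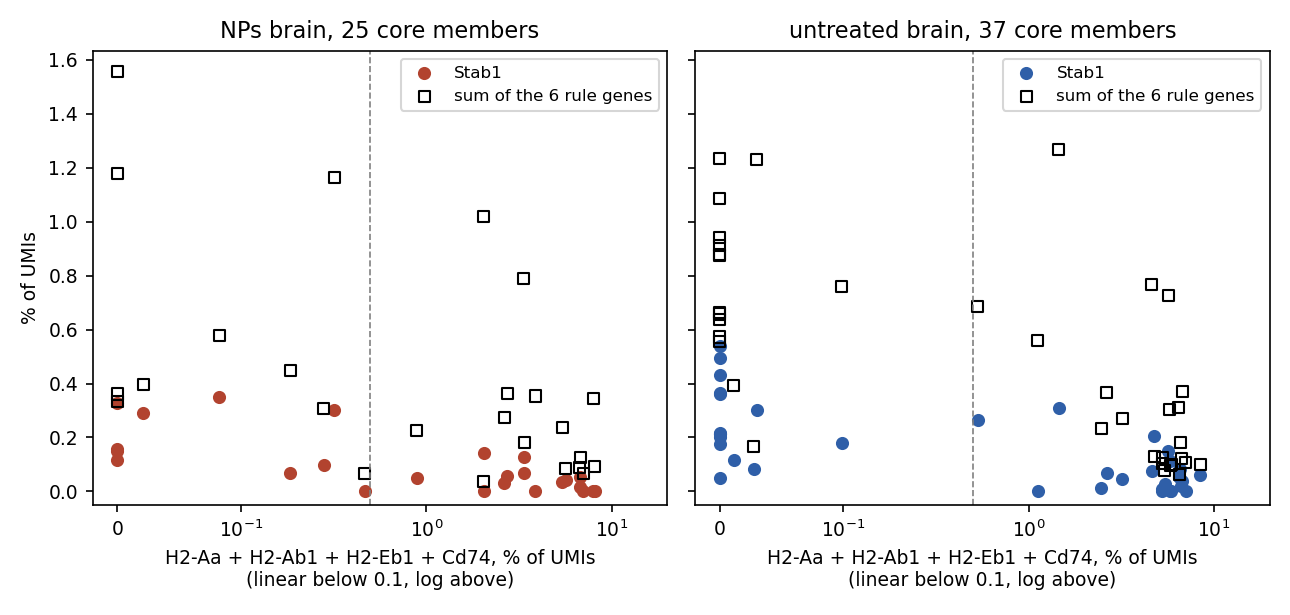
Share of UMIs in H2-Aa, H2-Ab1, H2-Eb1 and Cd74 per core member (x axis, %, linear below 0.1 and log above) against the share in Stab1 (filled) and in the 6 rule genes (open squares; y axis, %), NPs brain on the left and untreated brain on the right, with the 0.5% limit dashed. The median share of rule genes is 0.225% in NPs and 0.209% in untreated MHC II-high cells, and 0.423% in NPs and 0.759% in untreated MHC II-low cells. The rule genes also chose the cells.

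Between the libraries, H2-Eb1 was far lower in the NPs brain, while H2-Aa, H2-Ab1 and Cd74 were close in core members. H2-Eb1 encodes the beta chain of the second class II molecule, I-E (ENSMUSG00000060586, GRCm38 chromosome 17, 34305867 to 34316674). MHC II-high core members of the NPs brain held 0 to 5 H2-Eb1 UMIs with a median of 1, and those of the untreated brain 0 to 97 with a median of 34. No NPs cell came near the untreated median, although H2-Aa in the same cells had medians of 68 UMIs in the NPs brain and 69.5 UMIs in the untreated brain. Over all core members H2-Eb1 was at 135 CPM in the NPs brain and 3472 CPM in the untreated brain, a ratio of 0.0389 (0.0248 to 0.0583). Over all members it was at 108 and 2194 CPM, a ratio of 0.0491 (0.0313 to 0.0735), and in microglia at 0.398 and 6.89 CPM, a ratio of 0.0577. H2-Aa, H2-Ab1 and Cd74 had ratios of 0.866, 0.916 and 0.971 in core members, and H2-DMa one of 0.678 with an interval below 1. In microglia H2-Aa had a ratio of 0.499, H2-DMb1 one of 0.496 and H2-DMa one of 0.192. H2-Ea-ps, the gene of the I-E alpha chain that is a pseudogene in the reference strain, was at 135 CPM in NPs members and 69.7 CPM in untreated members, 1.93-fold higher, with a core ratio of 1.55 (0.879 to 2.78). The strain of each library is not given, and this region is polymorphic between strains, so a lower level and a lower rate of read mapping cannot be told apart.

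The classical class I genes H2-K1 and H2-D1 were higher in the NPs brain, in members and microglia. H2-K1 (chromosome 17, 33996017 to 34000347) had 1 to 45 UMIs per NPs core member with a median of 11, and 0 to 25 UMIs per untreated core member with a median of 3. Its level was 1629 CPM in NPs members and 672 CPM in untreated members, 2.42-fold higher (2.07 to 2.84), and 2.13-fold higher in microglia. H2-D1 was at 3486 CPM in NPs members and 1637 CPM in untreated members, 2.13-fold higher (1.92 to 2.36), and 2.59-fold higher in microglia. The non-classical gene H2-Q4 was 3.65-fold higher in members (2.00 to 6.86) and 1.21-fold higher in microglia. These genes resemble each other in sequence, so the split of reads between them is uncertain, and it was not tested.

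**Figure D4:**
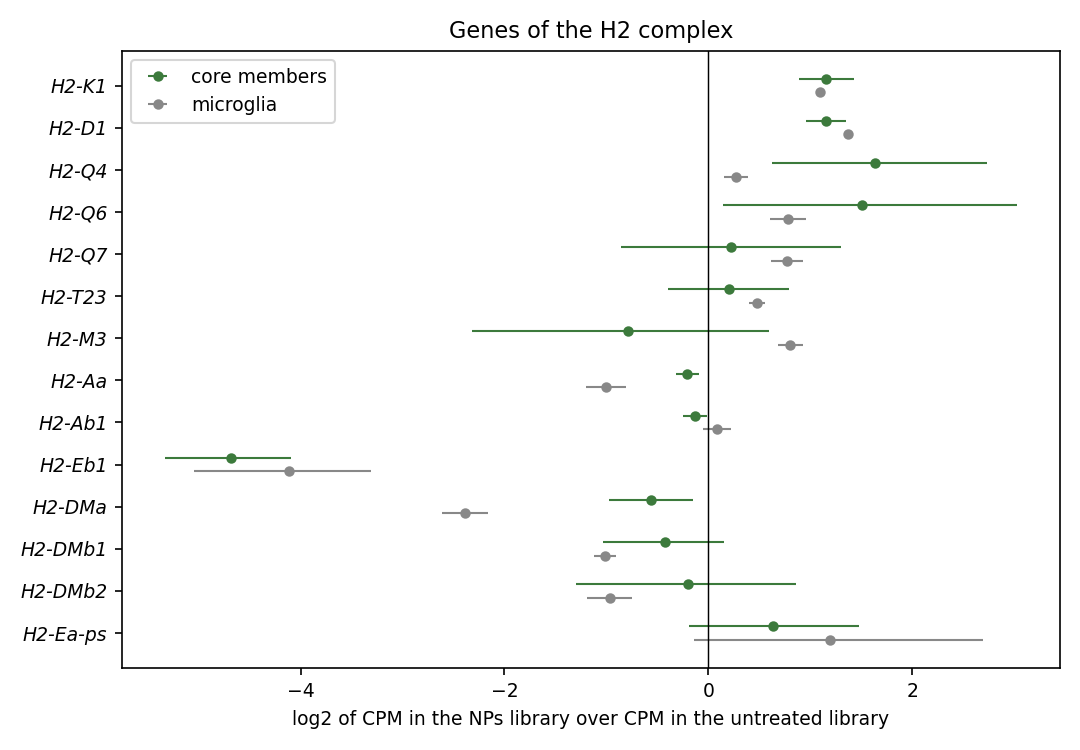
Log2 ratio of CPM in the NPs library over CPM in the untreated library (x axis) for 14 genes of the H2 complex (y axis) in core members (green) and microglia (grey), with conditional binomial 95% intervals that cover counting error only. H2-K1 and H2-D1 lie right of 0 and H2-Eb1 far left of it in both cell types, while H2-Aa and H2-Ab1 lie near 0 in core members.

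Across all genes, more differed between the libraries in members than in microglia, whose sums hold many times more UMIs. Of 3266 genes at 50 CPM or more, 400 were at least 1.5-fold higher in NPs members (12.2%) and 433 lower (13.3%). In core members 510 of 3089 genes were higher (16.5%) and 419 lower (13.6%), and in microglia 41 of 3506 were higher (1.17%) and 73 lower (2.08%). The members held 222869 UMIs in the NPs brain and 430166 in the untreated brain, so the counting error per gene is far wider than in microglia, and these percentages are the background for every list below. Of 1269 genes that met the limits for naming, 143 had an interval above 1 and 135 below 1.

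Most of the 12 named genes that were lower in NPs members as a whole are genes of vessel walls. Acta2, smooth muscle actin, had 1 UMI in NPs members and 879 UMIs in untreated members (4.49 and 2043 CPM). Tagln, another smooth muscle gene, had 0 UMIs in NPs members and 523 in untreated members (1216 CPM), a ratio of 0.0111 with 3 UMIs taken for 0. The untreated UMIs of Acta2 lay mostly in the 3 C1q-poor members with Cbr2 as their only rule gene, which held 171, 302 and 398 of the 879, and in core members of the untreated brain Acta2 and Tagln were at 9.05 CPM each. The comparisons below are therefore given for core members beside all members. Chil3, a monocyte and macrophage lectin gene, was 7.42-fold higher in NPs members and at 0 UMIs in the core members of both libraries.

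Several chemokine genes differed between the core members of the libraries, in both directions. Ccl12, a monocyte attractant (chromosome 11, 82101845 to 82103400), had 0 to 74 UMIs per NPs core member with a median of 5, and 0 to 17 UMIs per untreated core member with a median of 0. It was at 1576 CPM in NPs core members and 412 CPM in untreated core members, 3.83-fold higher (3.01 to 4.90; 2.47-fold without its top 2 members), and over all members 5.34-fold higher (4.24 to 6.76). A Ccl12 UMI was found in 21 of 25 NPs and 14 of 37 untreated core members, and with each cell thinned to 2000 UMIs, which left out 1 NPs and 4 untreated core members, in 70.8% and 27.3%. The Ccl12 ratio of microglia was 1.74 (178 and 103 CPM). Ccl4 was at 1526 CPM in NPs core members and 733 CPM in untreated core members, 2.08-fold higher (1.71 to 2.54), but its log2 ratio over all members, 1.58, turned to -0.38 with barcodes thinned to 2000 UMIs. Its core ratio was 1.55 without its top NPs member and 1.28 (1.02 to 1.61) without the top 2. Ccl3 was at 1030 and 484 CPM, 2.13-fold higher (1.67 to 2.73). A single member held 43.7% of the Ccl3 UMIs of the NPs core, and the log2 ratio of Ccl3 over all members was 1.19 with its top member and 0.42 without it. The core ratio of Ccl3 without that member was 1.25 (0.941 to 1.65). Cxcl16, a membrane-bound chemokine that binds CXCR6, was at 417 and 208 CPM, 2.00-fold higher (1.37 to 2.96).

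Cxcl13, which attracts B cells (chromosome 5, 95956951 to 95961068), had 163 UMIs in NPs core members and 0 in untreated core members. Its level was 67.6-fold higher with 3 UMIs taken for 0, and the interval had a lower bound of 54.3. The 163 UMIs lay in 2 of 25 cells, and 1 cell held 66.9% of them. Other chemokines pointed the opposite way. Ccl7, a monocyte attractant (chromosome 11, 82045712 to 82047525), was at 180 CPM in NPs core members and 661 CPM in untreated core members, a ratio of 0.273 (0.180 to 0.402). Its UMIs were again few-celled, with 6 of 25 NPs and 7 of 37 untreated core members holding any. Without the untreated member that held 71 of 146 the Ccl7 ratio was 0.515 (0.329 to 0.789). Leaving out its top 2 untreated members gave 0.674 (0.422 to 1.06). Ccl24, an eosinophil attractant, had a ratio of 0.368 (0.197 to 0.654), or 0.587 (0.301 to 1.10) without its top 2 untreated members. Ccl2 had one of 0.806 (0.604 to 1.07), which turned to 1.10 without its top untreated member. Of 14 chemokine genes measured, 5 were higher and 3 lower in members, and 5 higher and 4 lower in core members, with median log2 ratios of 0.08 and -0.02.

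Other named genes were also higher in NPs core members. C4b, a component of the classical complement pathway, was at 203 CPM in NPs core members and 40.7 CPM in untreated core members, 4.97-fold higher (2.35 to 11.7; 2.70-fold without its top 2 members), and 2.96-fold higher in microglia at far lower levels (9.88 and 3.34 CPM). Cd72, a C-type lectin gene of B cells and macrophages, was at 270 and 72.4 CPM, 3.73-fold higher (2.08 to 7.04), with a microglial ratio of 0.904. Without the 2 NPs members that held 30 of its 48 NPs core UMIs, the Cd72 ratio was 1.66 (0.798 to 3.47). Ccrl2, a receptor that binds chemerin, was 3.08-fold higher (2.15 to 4.48), Nfkbia, the NF-kB inhibitor, 2.38-fold (1.66 to 3.45; 1.49 without its top 2 members), and Tmsb10, an actin-binding peptide gene, 4.00-fold (2.48 to 6.70). In all members Nfkbia and Tmsb10 had ratios of 1.09 and 0.888. Il1b, named here after its values were seen, was at 1914 CPM in NPs core members and 996 CPM in untreated core members, 1.92-fold higher (1.62 to 2.29), and its microglial ratio was 0.723. A few cells held much of it: the core ratio of Il1b was 1.48 (1.23 to 1.79) without the NPs member that held 95 of its 340 NPs core UMIs, and 1.04 (0.846 to 1.28) without the top 2, which held 175. The difference between Il1b ratios of the cell types was not tested. Colec12, a scavenger receptor gene also named after its values were seen, was at 315 and 72.4 CPM in core members, 4.35-fold higher (2.46 to 8.13), and at 387 and 4.41 CPM in microglia.

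Among genes lower in the NPs core was Hpgd, which breaks down prostaglandins, at 315 CPM in NPs core members and 806 CPM in untreated core members, a ratio of 0.391 (0.284 to 0.531). Selenop was at 2393 and 3662 CPM, a ratio of 0.653 (0.580 to 0.736), the calcium channel gene Cacna1a at 61.9 and 249 CPM, a ratio of 0.249 (0.117 to 0.480), and the early response gene Egr1 at 175 and 493 CPM, a ratio of 0.354 (0.229 to 0.531), or 0.687 (0.425 to 1.09) without its top 2 untreated members. Neat1, a nuclear RNA, had a ratio of 0.522 (0.390 to 0.693). The identity genes that chose the cells are descriptions: Mrc1 was at 1509 CPM in NPs and 2042 CPM in untreated core members, Cd163 at 180 and 344 CPM, and Pf4 at 1126 and 1114 CPM.

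**Figure D5:**
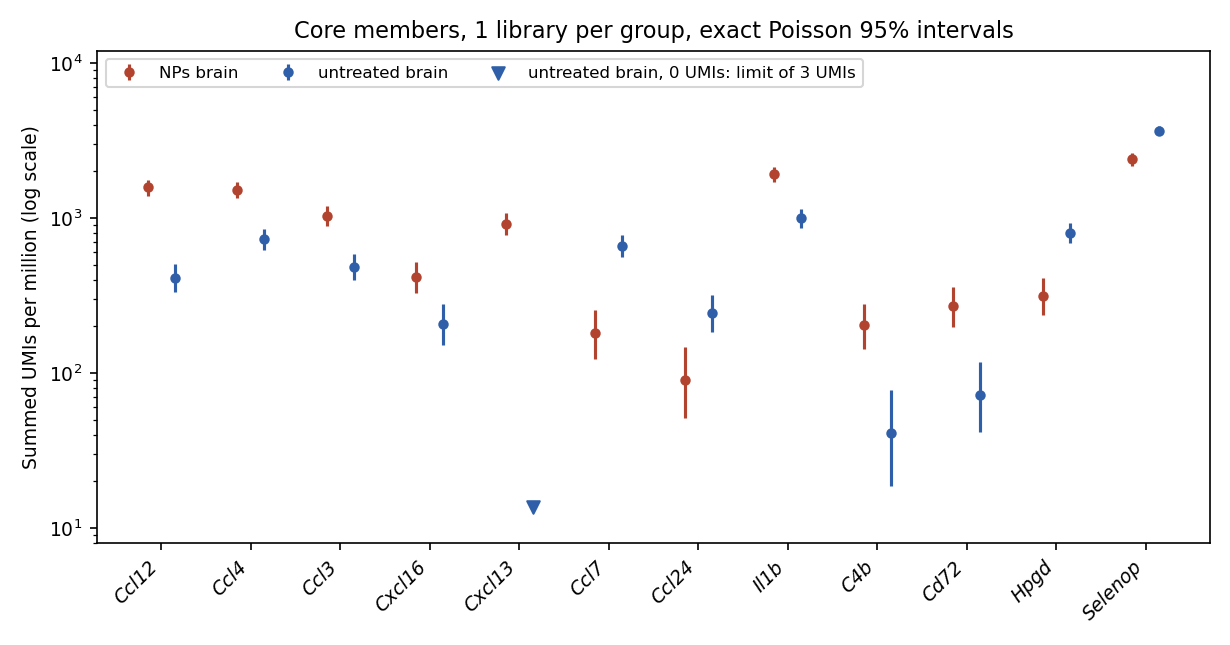
Summed UMIs in CPM (y axis, log scale) of 12 genes (x axis) in core members, NPs brain red and untreated brain blue, with exact Poisson 95% intervals that cover counting error only and a triangle at the limit of 3 UMIs where a library held 0. Ccl12, Ccl4, Ccl3, Cxcl16, Cxcl13, Il1b, C4b and Cd72 lie higher in the NPs brain, and Ccl7, Ccl24, Hpgd and Selenop lower.

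Among the 14 interferon response genes measured in members, 6 passed 1.5-fold upward and 0 downward, and their median log2 ratio was 0.40, against 0.01 for all genes. In core members 6 of 13 were higher and 0 lower, and the median was 0.53, against 0.03 for all genes. Over the alternatives the median of the interferon response list ran from 0.13 with 100 CPM required to 0.91 when thinned. Ifi204, an interferon-inducible DNA sensor, was at 208 CPM in NPs core members and 104 CPM in untreated core members (2.00-fold, 1.16 to 3.53; 1.43-fold, 0.774 to 2.65, without its top 2 members), and Ly6e at 766 and 376 CPM (2.04-fold, 1.54 to 2.71). Stat2 and Xaf1, each at 90.1 and 40.7 CPM, had intervals that included 1. In microglia 0 of 4 measured interferon genes passed 1.5-fold in either direction. All 4 measured cell cycle genes were higher in NPs members, but 1 NPs member of 15854 UMIs held 10 or more UMIs of Mki67 and Top2a, genes of dividing cells, and 0 untreated members did. Pcna, the replication clamp, was at 117 CPM in NPs and 51.1 CPM in untreated members, and 1 cell held 56.0% of its UMIs in the NPs core.

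The other lists are given by their counts at 1.5-fold. Of 25 lysosome genes 0 were higher and 0 lower in members, with a median of 0.00, and 0 higher and 1 lower of 25 in the core. In the list of immediate early genes and heat shock genes, 0 of 25 were higher and 4 lower in members, and 0 of 25 higher and 4 lower in the core, with Junb at 0.663 of the untreated level (0.556 to 0.788). Of 28 border macrophage identity genes 8 were higher and 3 lower in members, and of 31 in the core 9 were higher and 6 lower, with Ms4a6c 1.77-fold higher (1.36 to 2.33). Scavenger and uptake receptors gave 4 higher and 0 lower of 21 in members, and 4 higher and 3 lower of 23 in the core. Perivascular-type genes gave 3 higher and 2 lower of 9 in members, and 2 higher and 4 lower of 12 in the core. Of 11 MHC class II presentation genes 1 was higher and 1 lower in members, and 0 higher and 1 lower in the core. Homeostatic microglial genes, which measure the microglial RNA mixed in, gave 0 higher and 2 lower of 20 in members, and 0 higher and 6 lower of 20 in the core. Of 10 oxidative stress genes 1 was higher and 2 lower in members, and of 9 in the core 0 were higher and 4 lower. Complement genes gave 1 higher and 0 lower of 8 in members, and 2 higher and 2 lower of 7 in the core. Cytokine and NF-kB feedback genes gave 3 higher and 2 lower of 15 in members, and 4 higher and 1 lower of 13 in the core. Lipid handling genes gave 3 higher and 2 lower of 17 in members, and 3 higher and 2 lower of 16 in the core. For iron and haem genes these counts were 3 and 2 of 12 in members, and 1 and 2 of 12 in the core. For transcription factors of macrophages they were 1 and 4 of 16 in members, and 1 and 3 of 17 in the core. For growth factor and survival genes they were 1 and 2 of 18 in members, and 1 and 5 of 17 in the core. For genes of disease-associated microglia they were 2 and 3 of 16 in members, and 2 and 2 of 15 in the core. For choroid plexus-type genes they were 1 and 2 of 10 in members, and 0 and 1 of 8 in the core. Matrix genes gave 1 higher and 1 lower of 7 in members, and 2 higher and 0 lower of 6 in the core. Neither of the 2 sex-linked genes measured passed 1.5-fold.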

How the data were processed

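The deposited matrices give, for each barcode, unnormalised UMI counts over 55450 genes. According to the submitters' processing notes, the authors made these counts with Cell Ranger 5.0.1 on GRCm38, and per the labels' protocols the libraries followed the 10x Genomics 3' protocol, after enzymatic dissociation, lysis of red cells and removal of dead cells with beads. All features matched the gene annotation used for positions. A 3' read does not cover the whole transcript, so levels are not per length.

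UMIs were summed over the cells of a population in each library and divided by the total to give CPM. Intervals are at 95% and cover counting error only: exact binomial for shares, exact Poisson for levels, conditional binomial for ratios. A library with 0 UMIs was given 3 counts. The ratio scripts were tested on simulated data. Genes were counted as higher or lower at 1.5-fold among those with a mean of 50 CPM. Named between libraries were, on each side, the 12 genes with the interval farthest from 1 that held 50 UMIs over both libraries, had a UMI in 10% of the members of the higher library and were not below the other barcodes there. Mitochondrial, ribosomal protein, haemoglobin, Gm-numbered, Rik and rule genes were left out, and, added after the data were seen, the rule was also run for core members and for MHC II-high over MHC II-low core members. The rule likewise named 12 genes on each side of microglia, and up to 6 members of each of 21 gene lists were added.

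The members, the lists and the markers were chosen with earlier results of these data known. Alternatives were a limit of 10% mitochondrial UMIs, a minimum of 1000 UMIs, Scrublet doublets left out, rule sums of 3 and 8, members with 2 or more microglial UMIs left out, thinning to 2000 UMIs, shared barcodes left out, a mean of CPM per cell, the median of all genes set to 0, other limits on CPM and on the MHC class II share, and, added after the data were seen, C1q-rich members, core members and leaving out the top member of a gene, or, for core ratios, its top 1 or 2 in the library where it was higher. Python 3.11.15, numpy 2.4.6, scipy 1.17.1, pandas 2.3.3, matplotlib 3.10.9 and scanpy 1.11.5 were used. The intestinal libraries were not analysed here, and a few genes that met the naming rule are not reported here.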

Additional observations from a re-analysis of the deposited data

Results flagged for a closer look

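A pair of genes was marked because the ratio between the NPs and untreated libraries went one way in the border-associated macrophages and the other way in microglia. Neither difference between the cell types was tested. Tuba1a, an alpha tubulin gene, was 3.86-fold higher in NPs members and 8.84-fold higher in NPs core members, against a ratio of 0.649 in microglia. A single NPs core member of 12112 UMIs held 52 of the 66 Tuba1a UMIs of NPs members and also 59 UMIs of the neuroblast markers. Without it the log2 ratio of Tuba1a in members was -0.21, and the core ratio was 1.78 (0.688 to 4.78). Vim, an intermediate filament gene, was 3.04-fold higher in NPs core members (248 CPM in the NPs brain and 81.5 CPM in the untreated brain), against a ratio of 0.544 in microglia. Without its top 2 NPs core members the Vim ratio was 1.93 (1.01 to 3.75). Over all members the Vim ratio was 0.313, with 444 CPM in NPs and 1420 CPM in untreated members.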

How the results depend on the processing

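The share of members among kept barcodes stayed lower in the NPs brain under every alternative run, with ratios of 0.462 to 0.647, and its share among macrophages likewise, with 0.396 to 0.554. The ratio of MHC II-high shares ran from 0.975 to 1.24. Counts of genes moved with the level required. Of genes higher in NPs members, 400 became 1140 with 20 CPM, 123 with 100 CPM and 1039 when thinned, and of those lower 433 became 1167, 133 and 870. Against microglia 517 higher genes became 855 with 20 CPM and 338 with 100 CPM, and 745 lower genes became 1362 and 411. The cause of the moves was not tested, beyond the number of genes that each limit lets in. Tuba1a (log2 ratio 1.95) turned to -0.19 without Scrublet doublets and to -0.21 without its top member. It turned to -0.68 without members holding 2 or more microglial UMIs. Ccl4 (1.58) turned to -0.38 when thinned, Myl9 (-7.13) to 0.58 when thinned and 0.31 in core members, and Tpm1 (-4.14) to 0.17 when thinned; the cause was not tested. Of the other values of named genes between libraries 286 kept their direction and their side of 1.5-fold. Ccl3 fell under it without its top member (0.42), Tpm1 in core members (-0.20). On the log2 scale Ccl12 ran from 1.21 to 2.78, C4b from 1.99 to 4.45, Cxcl16 from 0.85 to 1.73 and H2-Eb1 from -4.68 to -3.57. No paired analysis was possible because each group had 1 library. The few members set the limit: levels under about 50 CPM rest on a handful of UMIs, and a count of 0 allows 13.5 CPM in NPs members and 6.97 CPM in untreated members.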

Other observations

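Microglial transcripts reached into the members: 16 of 30 NPs members and 27 of 56 untreated members held 2 or more UMIs of P2ry12, Tmem119, Siglech and Sall1. The other 14 NPs and 29 untreated members held fewer than 2. At least 1 such UMI was found in 25 NPs and 40 untreated members. In the same libraries microglia held Mrc1 at 0.612 CPM in the NPs brain and 0.861 CPM in the untreated brain. Microglia were limited to at most 1 UMI of the 6 rule genes, so this low level follows from the choice. Hmgcs1, an enzyme gene of sterol synthesis, was 3.98-fold higher in NPs than in untreated core members, or 2.33-fold (0.700 to 8.83) without its top cell, and Abcg1, a cholesterol exporter gene, had a ratio of 0.415. Hmox1, the haem oxygenase gene, had a ratio of 0.497 and Slc48a1, a haem transporter gene, one of 0.389. Id2, a transcription regulator gene, was 2.92-fold higher, or 1.80-fold (0.969 to 3.41) without its top 2 cells. Mitf, a factor of lysosomal gene control, had a ratio of 0.415. The intervals of Abcg1, Hmox1, Slc48a1 and Mitf included 1. Mmp12, a macrophage elastase gene, had 0 UMIs in untreated core members. With 3 UMIs taken for 0 it was 9.12-fold higher in NPs core members, and 1 cell held 81.8% of its UMIs. Clec10a, a galactose-binding lectin gene, was at 186 CPM in NPs core members and 58.9 CPM in untreated core members, 3.16-fold higher (1.62 to 6.54). Without its top 2 cells the Clec10a ratio was 1.95 (0.913 to 4.29). The genes of these last sentences, from Hmgcs1 on, were chosen after their values were seen.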
